A study of Mus musculus with 2 samples.

Results

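The chemokine ligands are the genes that the microarray names *Ccl*, *Cxcl*, *Cx3cl* or *Xcl* followed by a number. By this rule on names 36 of 37073 genes on the array were chemokine ligands, and they were measured by 50 probes, 25 genes by 1 probe and 11 by several. All 36 names are symbols in the RefSeq gene table of assembly GRCm38. The rule used no measured value, but the family was chosen with earlier results of these data known, the high *Cxcl14* among them.

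Both groups were MCMs, a purchased culture of mouse cardiomyocytes, used after many passages and kept in DMEM with 2% fetal bovine serum. One culture received siRNA-NC, the negative control siRNA, and the other siRNA-*Ppp2r5d*, which targets the delta B′ regulatory subunit of protein phosphatase 2A, each by Lipofectamine RNAiMAX. In both, the medium was replaced with glucose-free medium 48 h after transfection and total RNA was collected at 64 h, and the labels name no ISO for either. Each RNA was hybridized to 1 one-colour array, so no difference has a replicate check, no test was possible and every value below describes 1 pair of cultures. The comparison asks what the loss of *Ppp2r5d* does to ligand transcripts, and in bulk RNA fewer cells of a type and less RNA per cell cannot be told apart.

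Chemokines are small secreted proteins that direct the migration of leukocytes and other cells along a gradient by binding to receptors coupled to G proteins. They are named after the spacing of their first cysteines (C, CC, CXC and CX3C). Some are induced by cytokines and by signalling through NF-κB, STAT and IRF factors during inflammation, and others are made constitutively. In the heart, fibroblasts, endothelial cells and macrophages are well-known sources, and CCL2 and CXCL12 are among the best-studied cardiac members.

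The probes that carried the largest differences are shown first, because every value that follows is hybridization to one of these oligonucleotides. Each has 60 bases, of which the first 30 are printed here from 5′ to 3′ as the scanner files give them. Positions are those of mouse build mm9 in the same files. Whether a probe lies in an exon or an untranslated region was not analysed here. *Cxcl14* had 2 probes, at chr13:56390078-56390137 on the minus strand and at chr13:56397748-56398037. The second position spans 290 bases, more than the probe itself holds. *Cxcl12* had 2 probes on the plus strand, at chr6:117125026-117125085 and chr6:117131227-117131286, with 6141 bases between them. *Ccl9* had 1 probe, at chr11:83388223-83388282 on the minus strand, and *Cx3cl1* had 2 on the plus strand, at chr8:97306185-97306244 and chr8:97296213-97301245.
Cxcl14, first probe: cctcattagaggccgcactgtatggctgtg
Cxcl14, second probe: ttcttccaaggcactgaggagcgaatttaa
Cxcl12, first probe: gctgtaaacctcctaccgtatgtgggaatt
Cxcl12, second probe: aggagaaggcagcttcctatatgcagcgtg
Ccl9: caactaggatgaaataaattctgccttagc
Cx3cl1, bright probe: tcccagagcagaatgtgggccgtaacaatc
Cx3cl1, dim probe: catttgtgtactctgctgccggcttttctc

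Apart from control spots each array held 59305 spots, and the scanner software marked 35544 of them as well above background with siRNA-NC and 35174 with siRNA-*Ppp2r5d*. No member spot was saturated or marked as an outlier. *Ppp2r5d*, measured by 1 probe, had an intensity of 4701 with siRNA-NC and 676 with siRNA-*Ppp2r5d*, and its log2 fold change was -2.60. Intensities are given as deposited, whereas log2 fold changes were taken after subtracting the 75th percentile of each array, which stood at 593 with siRNA-NC and at 519 with siRNA-*Ppp2r5d*. An intensity that was the same on both arrays therefore has a log2 fold change slightly above 0. The error printed beside a log2 fold change combines the scanner software's errors of the 2 signals, and it holds no variation between cultures.

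The labelled cell type was checked against markers. Of 10 cardiomyocyte markers, 5 were well above background with siRNA-NC and 8 with siRNA-*Ppp2r5d*. *Myh6*, *Mybpc3* and *Ryr2* were detected with siRNA-*Ppp2r5d* alone. Their intensities there were 14.3, 14.2 and 19.3, close to 13.5, the lowest signal well above background on that array. The cardiac actin gene *Actc1* had intensities of 6443 and 5268 and the troponin gene *Tnnt2* of 858 and 1006, but the ventricular myosin light chain *Myl2* and the sarcomeric actinin gene *Actn2* were not well above background on either array. Of 8 fibroblast markers, 6 were well above background on each array, as were 8 of 11 markers of macrophages and other leukocytes. The summed level of the leukocyte list was 19.6 with siRNA-NC and 18.6 with siRNA-*Ppp2r5d*, in units of the 75th percentile. That of the fibroblast list was 486 and 518. That of the cardiomyocyte list, mostly *Actc1*, was 12.6 and 12.5. Within the fibroblast list, whose sum is mostly collagen, *Lum* had a log2 fold change of 1.08 and *Pdgfra* of 0.63. The brightest *Pdgfra* probe, with intensities of 1400 and 1476, had 0.27. The other 4 detected markers had gene values below 0, *Col1a1* of -0.13, *Col1a2* of -0.31, *Col3a1* of -0.049 and *Dcn* of -0.14. The probes of each collagen gene disagreed, and the brightest was above 0. It had 0.086 for *Col1a1*, 0.059 for *Col1a2* and 0.21 for *Col3a1*. Of 5 smooth muscle and pericyte markers, 4 were well above background on each array, with summed levels of 268 and 279, mostly *Acta2*. Calponin, *Cnn1*, had intensities of 288 and 1341 and a log2 fold change of 2.41. The other detected markers had smaller values, *Pdgfrb* of 0.33, *Acta2* of -0.020 and *Myh11* of -0.38. Among the leukocyte markers, *Ptprc* (CD45) was detected by 1 of its 7 probes, with intensities of 888 and 848. *Itgam* was detected by 1 of 2 probes, with 4006 and 3592, and *Adgre1* (F4/80) was not well above background. The lysosomal marker *Cd68* was lower, with a log2 fold change of -0.77, as was the lysozyme gene *Lyz2*, with -0.68. The neutrophil marker *S100a8* was higher, with intensities of 106 and 275 and a log2 fold change of 1.57. Its partner *S100a9* was not well above background on either array. The T cell marker *Cd3e* had a gene value of 0.53. Its brighter probe, with intensities of 130 and 132, had 0.22, and its dim probe, with 21.7 and 33.9, had 0.84. The median over the detected leukocyte markers was 0.042. The endothelial list was near background, at 0.156 and 0.155, with *Cdh5* not well above background on either array. Which cells made each ligand, and the part of these cells in the differences below, was not tested.

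Many ligand transcripts were too dim to measure. With siRNA-NC 15 members had at least 1 probe well above background, and with siRNA-*Ppp2r5d* 17 did. The 17 genes were 47.2% of the family, against 58.5% for all genes. *Ccl3* and *Ccl6* were the members detected with siRNA-*Ppp2r5d* alone. Of the 17, 3 were at least 2-fold higher with siRNA-*Ppp2r5d*, namely *Cxcl14*, *Ccl9* and *Cxcl12*, where the share of all 21701 detected genes was 1.09%. *Cx3cl1* was the 1 member at least 2-fold lower, against 1.47% of all detected genes. At 1.5-fold, *Ccl8* and *Ccl5* joined the higher genes to make 5 (3.87% of all genes), and the lower count stayed at 1 (5.42% of all genes). In percentages of the 17, 23.5% were past 2-fold and 35.3% past 1.5-fold in either direction, against 2.55% and 9.29% of all genes. *Cxcl14* was known to be high when the family was chosen, so these shares are not independent of that choice.

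Among the 15 members measured on both arrays, 10 had a positive and 5 a negative log2 fold change. Their median log2 fold change was 0.21 and their median absolute log2 fold change 0.43, and over the 20350 genes measured on both arrays these were 0.026 and 0.17. Setting *Ccl3* and *Ccl6* at their bounds gave a median of 0.27, and over all 21701 detected genes the median with bounds was 0.022. Both were detected with siRNA-*Ppp2r5d* alone, so their bounds could not be negative and add nothing to the direction. The family did not move as a block, and the values ran from -1.09 for *Cx3cl1* to 3.23 for *Cxcl14*.

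**Figure D1:**
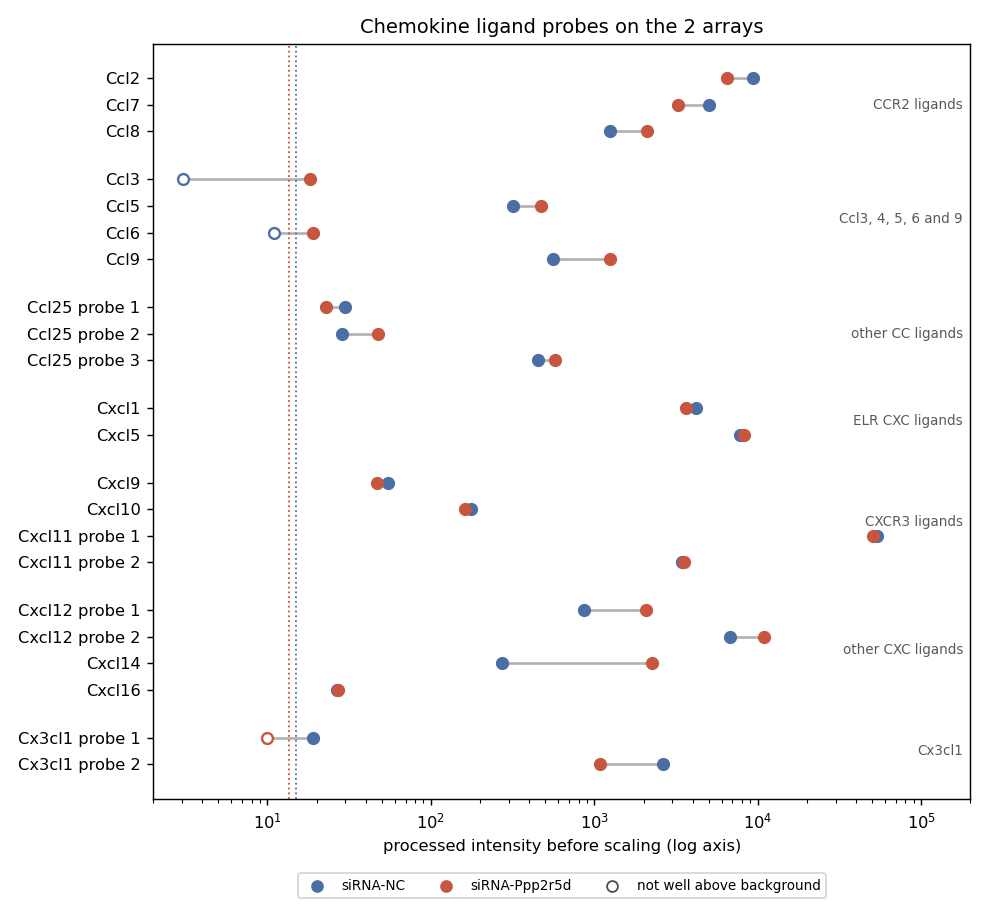
Processed intensity (log axis, before scaling) of each chemokine ligand probe that was well above background on at least 1 array, with siRNA-NC in blue and siRNA-Ppp2r5d in red, joined by a grey line, open circles where the probe was not well above background and dotted lines at the lowest signal well above background (14.9 and 13.5). Probes of a gene are numbered by position, and Cxcl14 shows the longest line between 2 filled circles, from 273 to 2252.

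CXCL14 and CXCL12 are CXC chemokines that many tissues make without an inflammatory stimulus. CXCL14 is produced by epithelia and fibroblasts, and its receptor is not settled. The first *Cxcl14* probe had an intensity of 273 with siRNA-NC and 2252 with siRNA-*Ppp2r5d*. The log2 fold change was 3.23 with a scanner error of 0.20, or 9.41-fold higher. This was the highest value of the 20350 genes measured on both arrays, and of the 31701 probes behind them 1, which the array names by its position alone, was higher. The second *Cxcl14* probe did not carry the difference. Its intensities were 3.10 and 3.83, not well above background on either array. The first 19 bases of this probe match the RefSeq promoter window of *Cxcl14* in GRCm38, beginning 125 bases before the annotated start, so these bases lie before that start. The difference of *Cxcl14* thus rested on 1 probe with 1 spot per array. The epithelial list was higher beside it, with 1 of 4 markers detected with siRNA-NC and 2 with siRNA-*Ppp2r5d* and a summed level of 0.127 and 0.444. The keratin gene *Krt8* had intensities of 55.3 and 211, while *Epcam* and *Cdh1* were not well above background on either array, and the part of such cells in the *Cxcl14* difference was not tested.

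CXCL12 (SDF-1) binds CXCR4 and the scavenger receptor ACKR3, and it retains and recruits progenitor cells. Its transcript has splice forms that differ at the 3′ end. The first *Cxcl12* probe had intensities of 869 and 2069 and a log2 fold change of 1.44, or 2.72-fold. The second had intensities of 6792 and 10975 and a log2 fold change of 0.89, or 1.85-fold. Both probes were higher, and the mean over them was 1.16, or 2.24-fold, with a scanner error of 0.14. With the brighter probe alone *Cxcl12* falls below 2-fold. Which splice form each probe reads was not analysed here. CXCL16, a transmembrane ligand of CXCR6 that is shed by ADAM10, was near background: 1 *Cxcl16* probe had intensities of 26.6 and 26.9 and a log2 fold change of 0.21, while the other was not well above background. *Cxcl13* and *Cxcl17* were not well above background on either array.

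CX3CL1 (fractalkine) is a membrane-anchored chemokine with a mucin stalk, and its soluble form attracts cells that carry CX3CR1. The bright *Cx3cl1* probe had intensities of 2632 and 1080, a log2 fold change of -1.09 with a scanner error of 0.20, or 2.13-fold lower. The dim probe had intensities of 19.0 and 9.93, the second of them not well above background, and was at least 1.23-fold lower. Detected with siRNA-NC alone, it could only count as lower, so the value of *Cx3cl1* rests on the bright probe. Without a filter on dim probes their mean was -0.92, short of 2-fold.

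**Figure D2:**
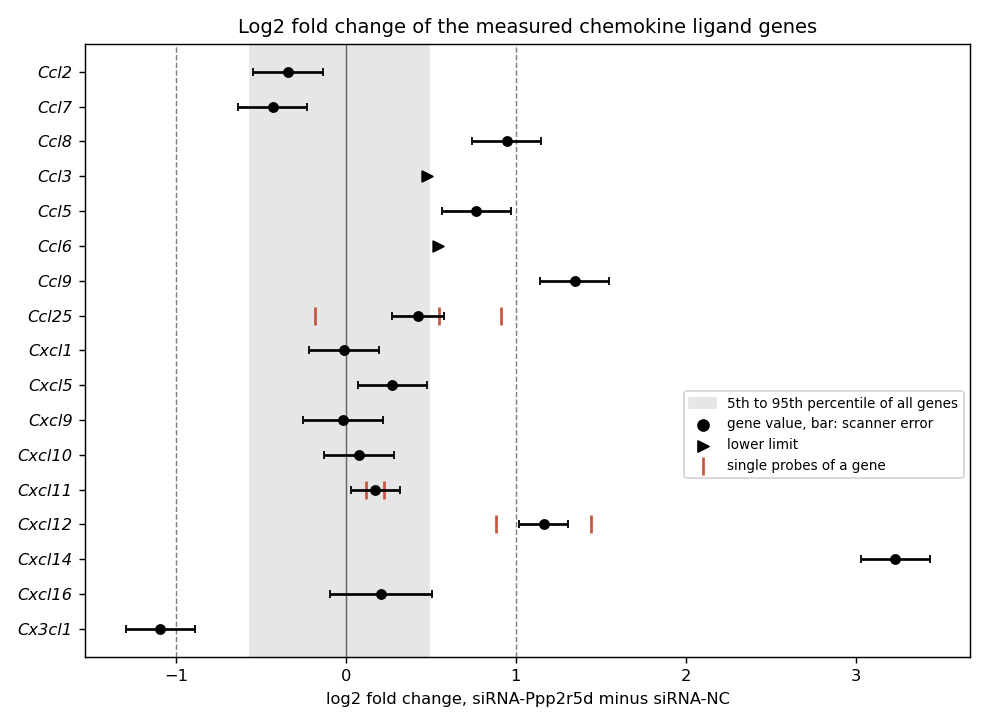
Log2 fold change (siRNA-Ppp2r5d minus siRNA-NC) of the 17 chemokine ligand genes detected on at least 1 array, with the scanner error as a bar, triangles for lower limits, red ticks for single probes, dashed lines at 2-fold and a grey band from the 5th to the 95th percentile of all genes (-0.56 to 0.49). Cxcl14, Ccl9 and Cxcl12 lie beyond 2-fold on the right and Cx3cl1 on the left.

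*Ccl2*, *Ccl7*, *Ccl8* and *Ccl12* were listed together as ligands of CCR2, and the receptor that mouse CCL8 uses was not examined here. Those that were measured moved in different directions. *Ccl2* (MCP-1) had intensities of 9335 and 6449 and a log2 fold change of -0.34, or 1.27-fold lower. *Ccl7* (MCP-3) had intensities of 5012 and 3251 and a log2 fold change of -0.43, or 1.35-fold lower. *Ccl8* (MCP-2) had intensities of 1249 and 2106 and a log2 fold change of 0.95, or 1.93-fold higher. *Ccl2* and *Ccl7* are neighbours and both were lower, whereas *Ccl8*, from the same stretch of chromosome 11, was just below 2-fold higher. The values of *Ccl2* and *Ccl7* lay within the range from the 5th to the 95th percentile of all genes, and that of *Ccl8* lay above it. *Ccl12* was not well above background on either array.

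Of *Ccl3*, *Ccl4*, *Ccl5*, *Ccl6* and *Ccl9*, inflammatory CC ligands that attract monocytes and T cells, 2 were measured on both arrays, *Ccl9* and *Ccl5*, and both were higher with siRNA-*Ppp2r5d*. *Ccl9* (MIP-1γ), a rodent CCR1 ligand, had intensities of 562 and 1250.5 and a log2 fold change of 1.35 with a scanner error of 0.20, or 2.54-fold. *Ccl5* (RANTES) had intensities of 317 and 472 and a log2 fold change of 0.77, or 1.70-fold. Both were far above background on each array, and *Ccl9* ranked 66 from the highest log2 fold change of the 20350 genes measured on both. *Ccl3* (MIP-1α) had intensities of 3.05 and 18.1, and *Ccl6*, another rodent CC ligand, of 10.9 and 19.0. In each the first was not well above background and the second was close to the lowest signal that was, so *Ccl3* was at least 1.39-fold and *Ccl6* at least 1.45-fold higher. A gene detected with siRNA-*Ppp2r5d* alone can only count as higher, so these bounds add nothing to the direction of the group. *Ccl4* (MIP-1β) was not well above background on either array.

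**Figure D3:**
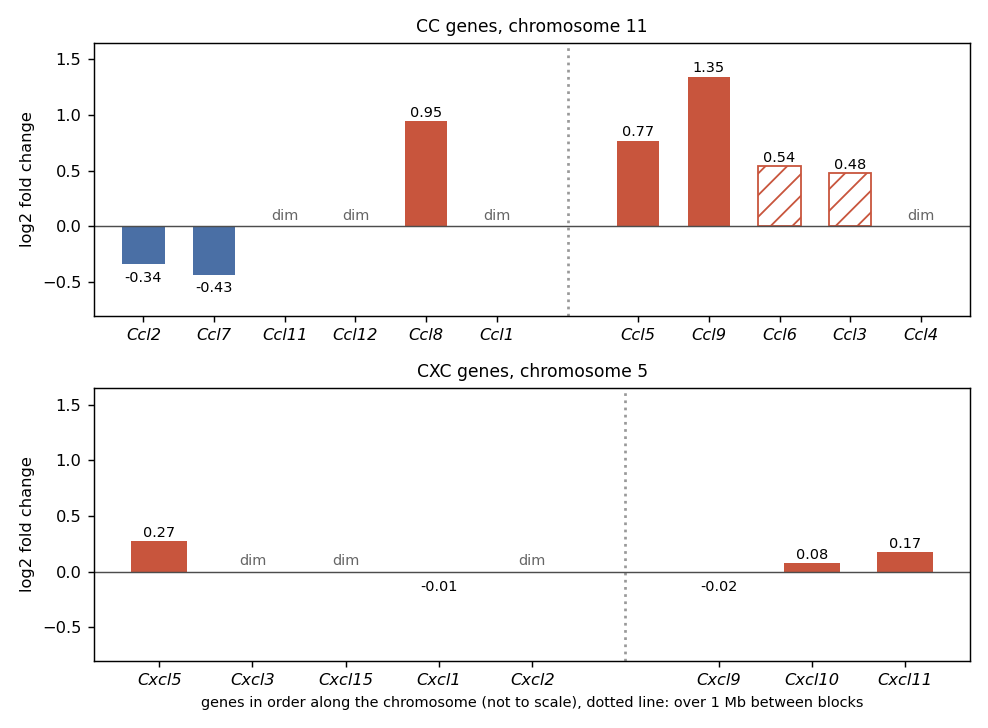
Log2 fold change of the CC genes of chromosome 11 and the CXC genes of chromosome 5, in the order of their probes, with hatched bars for lower limits, "dim" for genes not well above background on either array and a dotted line where over 1 Mb separates neighbours. Ccl5 and Ccl9, measured on both arrays, are above 0, the hatched bars of Ccl6 and Ccl3 have their sign from detection on 1 array, and the CXC genes lie between -0.02 and 0.27.

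Chemokine genes lie in clusters, and the values can be read along the chromosome. On chromosome 11 of build mm9, *Ccl2*, *Ccl7*, *Ccl11*, *Ccl12*, *Ccl8* and *Ccl1* followed each other over 139518 bases between the starts of their probes. After a gap of 1349128 bases came *Ccl5*, *Ccl9*, *Ccl6*, *Ccl3* and *Ccl4*, over 138742 bases. In the first block 3 of 6 genes were measured on both arrays, with both signs, and in the second block 2 of 5, *Ccl5* and *Ccl9*, both higher. The bounds of *Ccl6* and *Ccl3* could take 1 sign alone and are not counted here. *Cx3cl1* on chromosome 8 lies between *Ccl22* and *Ccl17*, within 61061 bases, and neither neighbour was well above background. *Cxcl14* and *Cxcl12* have no other member nearby.

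The neutrophil attractants, CXC ligands with an ELR motif that bind CXCR2, showed little difference. *Cxcl1* (KC) had intensities of 4179 and 3629 and a log2 fold change of -0.011, and *Cxcl5* (LIX) had intensities of 7832 and 8277 and a log2 fold change of 0.27. Their scanner errors were 0.20, so that the value of *Cxcl1* lay within its error. *Cxcl2*, *Cxcl3* and *Cxcl15* were not well above background on either array.

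The ligands of CXCR3, which interferons induce and which attract activated T cells, also stayed near 0. *Cxcl9* had intensities of 54.4 and 47.0 and a log2 fold change of -0.016. *Cxcl10* (IP-10) had intensities of 176 and 162 on 1 probe, a log2 fold change of 0.076, and its other probe was not well above background. These differences were smaller than the scanner errors of 0.23 and 0.21. The sign of *Cxcl9* and *Cxcl10* changed under other scalings.

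*Cxcl11* had intensities of 53488 and 50887 on 1 probe and of 3452 and 3522 on the other, and log2 fold changes of 0.12 and 0.22. Both probes were marked well above background, but both hold sequence that is not particular to *Cxcl11*. The first probe, at chr5:92788567-92788626 on the minus strand of mm9, shared a run of 20 bases with probes of 8 other genes, on either strand, and with the promoter windows of 21 other genes. The other, at chr5:92788640-92788699 and 13 bases away, shared such a run with 1 other probe, named *Fam109b*. The stretches below show 1 shared run of each probe in capitals.
Cxcl11, first probe, bases 20 to 49: agccaGGGCTACACAGAGAAACCCTatctt
Cxcl11, second probe, bases 24 to 53: gaaagGCAGAGGCAGGAGGATCTCTtgagt
The run in capitals in the first stretch was present in probes of 6 other genes and in the promoter windows of 14. All 8 probes that shared a run with it were well above background on both arrays, with log2 fold changes from -0.25 to 0.19. How much of the *Cxcl11* signal came from other transcripts was not tested, and its values are uncertain as a measure of *Cxcl11*. Apart from these, 1 probe each of *Ccl25* and *Ccl27a* shared a run of 20 bases with a probe or promoter window of another gene, and the other members shared none.

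Of 9 other CC ligands, most of them directed to lymphoid tissue, gut or skin, 1 was detected. *Ccl25* (TECK), which guides T cells to thymus and gut through CCR9, was the member whose probes disagreed. The probe at chr8:4359916-4359975 had intensities of 452 and 578 and a log2 fold change of 0.55. The probe at chr8:4354202-4357650 had intensities of 28.7 and 47.3 and a log2 fold change of 0.91. The remaining detected probe, at chr8:4327833-4327892, had intensities of 29.6 and 22.8 and a log2 fold change of -0.18. This probe lies 26309 bases upstream of the next. It is also the *Ccl25* probe that shared a run of 20 bases with the promoter window of another gene. The gene value of 0.43 averages across the disagreement. Another probe, at chr8:4357861-4357920, had intensities of 3.03 and 2.76, not well above background. Of the members with more than 1 probe measured on both arrays, *Cxcl11* and *Cxcl12* had probes of the same sign and *Ccl25* did not.

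The 19 members that were not well above background on either array included the eotaxins *Ccl11*, *Ccl24* and *Ccl26*, the lymph node chemokines *Ccl19* and *Ccl21a*, *Ccl1*, *Ccl17*, *Ccl20*, *Ccl22*, *Ccl27a*, *Ccl28* and the C chemokine *Xcl1*. Their 24 probes had intensities from 2.97 to 11.3 with siRNA-NC and from 2.67 to 12.3 with siRNA-*Ppp2r5d*. The lowest signal marked well above background was 14.9 and 13.5, and no fold change is given for genes below it. *Pf4* and *Ppbp*, platelet CXC chemokines whose symbols the rule does not take, were detected, *Pf4* with intensities of 68.8 and 40.0 and a log2 fold change of -0.59, and *Ppbp* with 148 and 133 and 0.042.

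**Figure D4:**
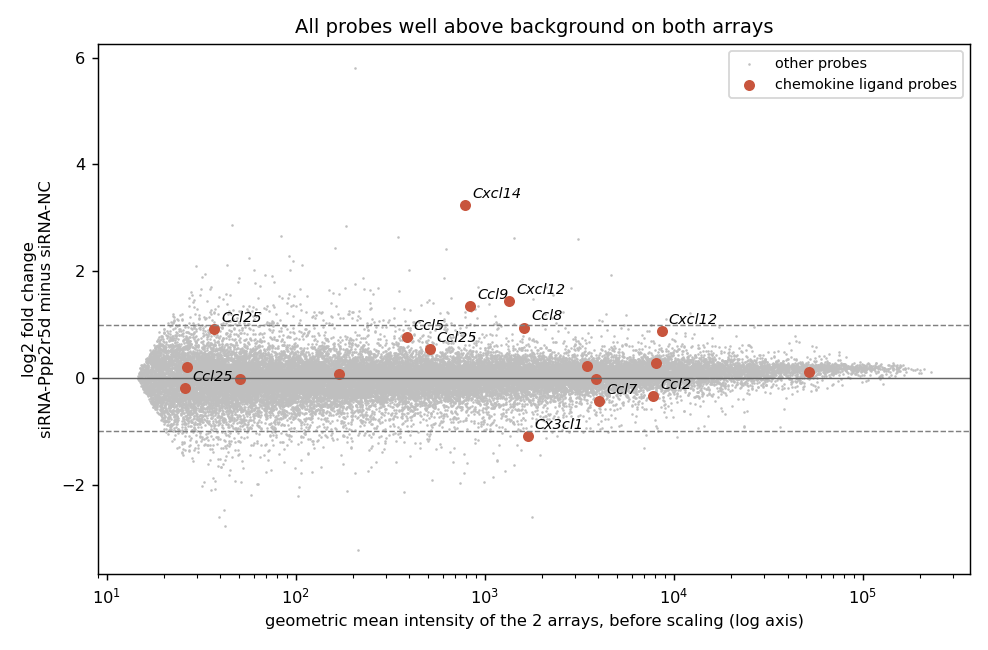
Log2 fold change (siRNA-Ppp2r5d minus siRNA-NC) against the geometric mean intensity of the 2 arrays (log axis) for the 31701 probes well above background on both arrays, with other probes in grey, chemokine ligand probes in red and dashed lines at 2-fold. Cxcl14 stands apart from the grey cloud, at 3.23, and most other red points lie inside it.

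The start regions of the members were read from RefSeq promoter windows of 300 bases, 250 before and 50 after the annotated start, in GRCm38.p6. A window was at hand for 25 of 36 members. No window was at hand for *Ccl2*, *Ccl4*, *Ccl5*, *Ccl7*, *Ccl11*, *Ccl24*, *Ccl26*, *Cxcl5*, *Cxcl11*, *Cxcl16* and *Cxcl17*. A match on either strand was sought for TTCNNNGAA, the core to which STAT factors bind, for GGGNNTTTCC, a form of the NF-κB motif, and for TTTCNNTTTC, the interferon-stimulated response element. They were present in 9.55%, 1.89% and 3.99% of the 27025 genes with a window, respectively, and in 2, 5 and 3 of the 25 members. The windows are shown because *Cxcl14* and *Ccl9* had the highest log2 fold changes of the members and *Cxcl1*, with a κB match, did not differ beyond its scanner error. The match is in capitals, with the gene's own strand from 5′ to 3′, so that a match on the opposite strand reads as its reverse complement. The matches begin 191 and 172 bases before the start in *Cxcl14*, 35 in *Ccl9* and 89 and 71 in *Cxcl1*, and they do not overlap. Both matches of *Cxcl1* are shown.
Cxcl14, STAT core, chr13:56296724-56296752: aacctgtgtgTTCTGAGAAgtgtccacag
Cxcl14, response element, chr13:56296704-56296733: gtgtccacagGAAACAGAAAagcagcaccc
Ccl9, NF-κB motif, chr11:83578652-83578681: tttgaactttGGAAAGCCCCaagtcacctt
Cxcl1, NF-κB motif, chr5:90891146-90891175: ccggttgcagGGAAACACCCtgtactccgg
Cxcl1, NF-κB motif, chr5:90891164-90891193: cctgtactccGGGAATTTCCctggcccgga
The STAT core was also found in *Ccl17*, the NF-κB motif in *Ccl20*, *Cxcl2* and *Cxcl3*, and the response element in *Ccl19* and *Cxcl10*. *Cxcl12* and *Cx3cl1*, the other members past 2-fold, had a window with no match of any of these motifs. Of the 5 genes with the NF-κB motif, *Ccl9* was higher, *Cxcl1* differed by less than its scanner error and *Ccl20*, *Cxcl2* and *Cxcl3* were not well above background. A match describes the letters of a window and says nothing of binding in these cells.

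Of 23 receptors and decoy receptors on the array, 10 were detected, 0 were at least 2-fold higher (1.09% of all detected genes) and 2 were at least 2-fold lower (1.47% of all), 1 of them by a bound. *Ackr4*, a scavenger of CCL19, CCL21 and CCL25, had intensities of 81.7 and 28.2 and a log2 fold change of -1.34, and its second probe had 22.8 and 7.46, of which the latter was not well above background. *Cxcr3*, the receptor of CXCL9 to CXCL11, had intensities of 33.1 and 6.65, the second not well above background, so that its log2 fold change was -1.10 or lower. Both lower receptors were dim, and with the background correction normexp neither was past 2-fold.

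The receptors of CXCL12 went in opposite directions. *Cxcr4* had log2 fold changes of 0.49 and 0.77 on its 2 probes, with intensities of 359 and 441 on the brighter, and *Ackr3* had intensities of 1794 and 1265 and a log2 fold change of -0.31. *Cxcr6*, the receptor of CXCL16, had a gene value of 0.13, and *Ackr1*, a scavenger of many CC and CXC ligands, of -0.16. Of the other detected receptors, *Ccr7* had a log2 fold change of 0.79, *Ccr8* of -0.35 and *Ccrl2* of -0.27, and *Ccr10* had a bound of -0.25. *Cx3cr1*, the receptor of CX3CL1, *Ccr1*, which binds CCL9, and *Ccr2* were not well above background on either array.

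Genes that induce chemokines were described from a list. Of 46 cytokines, receptors, NF-κB, STAT and IRF factors and their inhibitors on the array, 42 were detected and 0 were past 2-fold in either direction, against 2.55% of all detected genes. At 1.5-fold the share was 4.76%, against 9.29% of all. Their median log2 fold change was 0.0064, and the values ran from -0.81 for *Il6ra* to 0.78 for *Ifng*, whose intensities were 92.9 and 140. Among the brightest, the NF-κB inhibitor *Nfkbia* had intensities of 9526 and 8980 and a log2 fold change of 0.11, and the STAT feedback inhibitor *Socs3* of 9044 and 6493 and -0.29. The pattern receptor *Tlr2* had intensities of 5095 and 5387 and a log2 fold change of 0.27, and the interferon receptor chain *Ifngr1* of 4929 with siRNA-*Ppp2r5d* against 5444 and 0.049. Named after their values were seen, *Il6* had a log2 fold change of 0.33 and *Stat3* of 0.0051. The *Stat3* value averages 3 probes that disagreed. The brightest, with intensities of 8097 and 8844, had a log2 fold change of 0.32. Another had 0.13, and a dim probe, with 32.5 and 21.0, had -0.44. The proteases that release or trim ligands were also within 2-fold: *Adam10* and *Adam17*, which shed CX3CL1 and CXCL16, had log2 fold changes of -0.13 and 0.0038, and *Dpp4*, which clips the amino terminus of CXCL12, of 0.45.

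**Figure D5:**
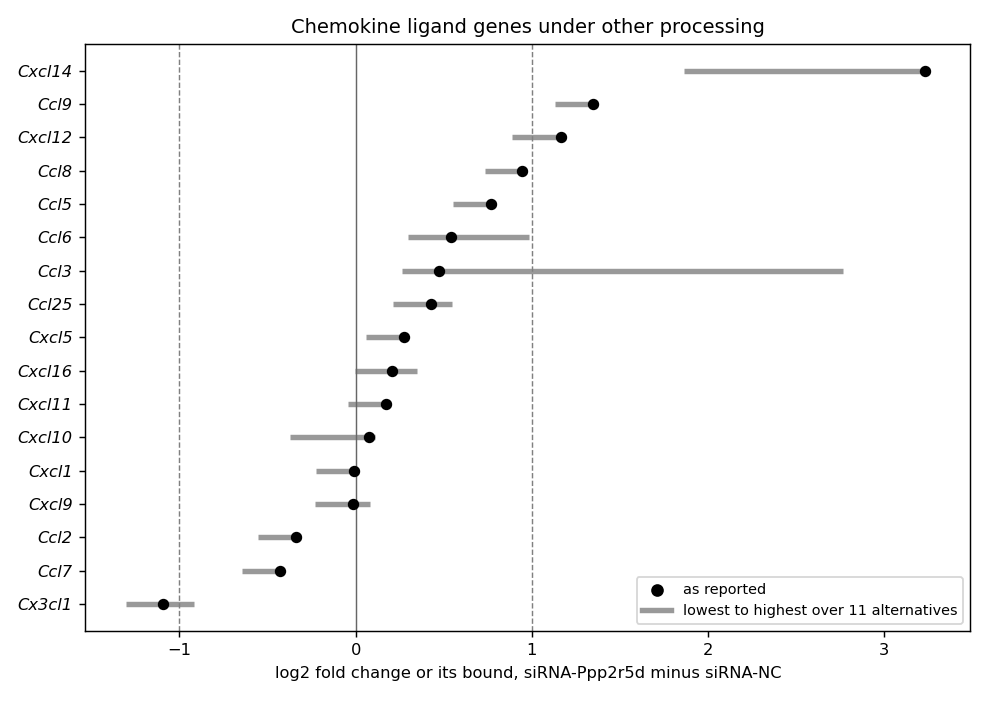
Log2 fold change, or its bound, of the 17 detected chemokine ligand genes as reported (black points) and its range from the lowest to the highest value over 11 other ways of processing (grey lines), with dashed lines at 2-fold. Cxcl14 and Ccl9 stay beyond 2-fold throughout, Cxcl12 and Cx3cl1 reach below it, and Ccl3 has the longest line, to 2.76.

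The calls held to different degrees under 11 other ways of processing, some of which could change little. The authors' log2 values matched the quantile normalization, and no member spot was marked as an outlier. *Ccl9* had 1 probe, so the 2 other filters and the brightest probe returned its reported value. *Cxcl14* ranged from 1.87, where its dim second probe was averaged in, to 3.26, and *Ccl9* from 1.13 to 1.37, and both were past 2-fold in 11 of 11. *Cxcl12* ranged from 0.89 to 1.19 and was past 2-fold in 8 of 11, and *Cx3cl1* ranged from -1.31 to -0.92 and was past it in 9 of 11. *Ccl8* and *Ccl5* were positive and below 2-fold in all 11. *Ccl3* reached 2.76 where its dim signal with siRNA-NC was taken at face value.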

How the data were processed

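Total RNA of MCMs was labelled with Cyanine 3 and hybridized to 2 one-colour Agilent arrays, 1 per condition. The sample labels gave the groups. Scanner output of Feature Extraction 10.7.1.1 was deposited for each array, with 1 background-corrected intensity per spot that was not normalized between arrays. The authors also deposited log2 values of 56605 probes. These matched a quantile normalization of the log2 intensities (median absolute difference 3.46e-06 for siRNA-NC), and were used as an alternative.

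Control spots and spots marked as feature non-uniformity or population outliers (126 with siRNA-NC and 95 with siRNA-*Ppp2r5d*) were left out, spots of a probe were averaged as log2, and each array was centred on its 75th percentile. A gene was the mean over its probes well above background on both arrays. For a gene detected on 1 array a bound was computed, for which the dim array was set to the lowest signal well above background or to its own signal where that was higher. No test was possible with 1 array per condition. Over 283 probes with 8 or more spots that were not controls, the SD of the log2 fold change between spots had a median of 0.036, and for the 4 dimmest, under an intensity of 50, of 0.23. All values are limited in precision by the number of arrays. The gene step was tested on simulated data.

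One item is not reported here. The members and lists were chosen with earlier results of these data known. Named genes were all members detected on an array, receptors and inducing genes past 2-fold with up to 4 further genes of each list by intensity, and *Ppp2r5d*. Other genes, and the search for shared runs of 20 bases, were chosen after values were seen. Alternatives were the authors' log2 values, quantile, median, cyclic loess and spike-in scaling, normexp (offset 50), 2 other filters, outlier spots kept, the brightest probe and thresholds of 1.5-fold and 4-fold. Software was Python 3.11.15 (pandas 2.3.3, NumPy 2.4.6, matplotlib 3.10.9) and limma 3.58.1 in R 4.3.3.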

Additional observations from a re-analysis of the deposited data

How the results depend on the processing

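The direction of every member call past 2-fold was the same under every alternative that was run. Without a filter on dim probes 0 of 36 ligands were past 2-fold lower. With probes that were positive and significant against background, 23 ligands were detected with siRNA-NC, 5 of 25 were higher (*Ccl3* and *Ccl4* by bounds, beside *Ccl9*, *Cxcl12* and *Cxcl14*) and 0 lower. At 1.5-fold 5 ligands were higher, and at 4-fold 1 was higher and 0 were lower. Receptors past 2-fold lower numbered 0 after normexp and 0 at 4-fold, and at 1.5-fold 2 were higher. Of the inducing genes, 1 was lower with spike-in scaling, and 1 was higher and 1 lower at 1.5-fold. The median log2 fold change of the ligands was -0.0047 with spike-in scaling, 0.16 after normexp, 0.077 without a filter, 0.016 without scaling between arrays (chosen after the data were seen) and 0.27 with bounds, which could not be negative. Spike-in scaling moved the median of all genes by -0.21 and no scaling by -0.19, to -0.19 and -0.17, so the median of the ligands stayed above that of all genes. Of all genes past 2-fold, 236 were higher and 318 lower as reported, 135 and 630 with spike-in scaling, 143 and 581 without scaling, and 67 and 45 after normexp. All genes past 2-fold numbered 957 higher and 1119 lower without a filter and 1124 and 1327 with the positive and significant filter. Of 187 values of single ligands under alternatives, 98 moved by less than the spot SD of 0.036 and 89 by more. The sign of *Cxcl1*, *Cxcl9*, *Cxcl10*, *Cxcl11* and *Cxcl16*, all close to 0, changed in some. The cause of these changes was not tested. No paired analysis was possible because each condition has 1 array, and for the same reason no replicate could be left out. Signals under the lowest well above background, 14.9 and 13.5, limit what can be said of 19 members.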
